A study of Mus musculus with 24 samples.

Results

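In MEFs (mouse embryonic fibroblasts), 228 genes were higher with torin1 and with MK-8722 than with DMSO, both in WT cells and in *tfeb tfe3* DKO cells, in which the genes of the transcription factors TFEB and TFE3 are knocked out. They were chosen from estimated gene counts. Counts were divided by the library's sum and multiplied by 1000000 (CPM, counts per 1000000 counts), and a gene was taken when its mean over 24 libraries was at least 2 CPM and its group mean of log2(CPM + 0.5) was at least 0.3 above DMSO of the same genotype in all 4 drug groups. A difference of 0.3 is a fold change of 1.23. Of 55487 genes in the table, 11734 had a mean of at least 2 CPM, and the 228 are 1.94% of these. They are 25.7% of the 886 genes that met the rule in WT and 46.6% of the 489 that met it in DKO. A further 658 genes met it in WT and not in DKO, and 261 in DKO and not in WT. The 4 rises over DMSO chose the genes, so they are given here as a description and without a test. All 228 passed the filter on low counts of the tests between groups, which kept 15401 genes.

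The study sequenced polyadenylated RNA of WT and *tfeb tfe3* DKO MEFs (labelled Tfeb/Tfe3 KO) after vehicle (DMSO), torin1, an inhibitor of MTOR kinase, or MK-8722, a direct activator of AMPK (labelled MK8722), to ask which responses to these drugs need TFEB and TFE3. Each of the 6 groups held 4 libraries, 1 per culture passage. WT cells were at passages 7, 8, 9 and 11 and DKO cells at passages 8, 9, 10 and 11, and values of single libraries are given below in this order. The 2 genotypes are 2 cell lines obtained together from another laboratory, so that genotype and line cannot be told apart, and p-values measure the spread between cultures of these lines. Neither the doses nor the hours of treatment of these libraries are in the sample labels.

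TFEB and TFE3 belong to the MiT/TFE family of transcription factors, which bind E-boxes of the CLEAR element in promoters of lysosomal and autophagy genes. Active MTORC1 at the lysosome phosphorylates TFEB and keeps it in the cytosol, and MTORC1 inhibition lets it enter the nucleus. AMPK senses falling cellular energy and has been placed upstream of the same factors. MTOR and AMPK also act on other transcription factors, such as FOXO proteins, ATF4 and the SREBPs.

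Total counts per library ranged from 24668921 to 33332562, and the RNA integrity number was 7.9 in 1 DKO MK-8722 library (replicate 3) and 9.7 to 9.9 in the others. Fibroblast markers were present, with 11 of 12 genes at 1 TPM (transcripts per 1000000) or more and *Lum* under 0.1, and their summed level was 3827 to 6571 TPM. Summed endothelial and adipocyte markers reached at most 0.564 and 0.291 TPM. Neural markers, with 3 of 6 at 1 TPM or more and *Gfap*, *Sox10* and *Elavl3* under 0.1, summed to 25.7 to 38.1 TPM in WT DMSO, 14.4 to 22.4 in the drug groups of WT and 15.3 to 25.2 in DKO. Skeletal muscle markers, with *Myod1*, *Myog*, *Myh3*, *Ckm* and *Actn2* under 0.1 and the sixth at 1 TPM or more, summed to 2.39 to 5.92 TPM in WT and 0.282 to 0.948 in DKO. None of these neural or muscle markers was among the 228, and their part in the results was not tested. *Tfeb* was at 23.95, 25.2, 21.03 and 22.3 CPM in WT DMSO and at 2.11, 2.54, 2.09 and 1.89 CPM in DKO DMSO. *Tfe3* mRNA was not called different under DMSO, with 121, 120.4, 121 and 121 CPM in WT and 117, 118, 116 and 122 CPM in DKO (log2 fold change 0.04 ± 0.03 SE, adjusted p = 0.28, edgeR). Under torin1 and MK-8722 it was 0.20 ± 0.03 and 0.23 ± 0.03 (SE) higher in DKO on the log2 scale. The level of *Tfe3* mRNA thus does not show the knockout, but it does not measure the protein and cannot test the label. DKO stands throughout for the libraries labelled so. *Mitf*, another member of the family, was 1.64 ± 0.13 (SE) higher in DKO on the log2 scale (adjusted p = 3.2e-10), and *Tfec* had no count in any library. The 3 WT libraries of passage 11 stood apart in interferon-stimulated genes, so the results that rest on these genes are given with and without them.

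The rise over DMSO had a median of 0.93 on the log2(CPM + 0.5) scale with torin1 in WT and 0.77 in DKO, and of 0.53 with MK-8722 in WT and 0.45 in DKO. These are fold changes of 1.90, 1.70, 1.45 and 1.36. The smallest of the 4 rises was that of MK-8722 in DKO for 119 genes, of MK-8722 in WT for 75, of torin1 in DKO for 27 and of torin1 in WT for 7. It reached at least 1 in 3 genes, at least 0.5 in 55 and was under 0.35 in 80. Torin1 raised 166 of the 228 genes more than MK-8722 in both genotypes, and MK-8722 raised 15 more than torin1 in both.

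When each drug library was compared with the DMSO library of the same genotype and passage, all 228 genes were above DMSO at each of the 4 passages with torin1 in WT. The number was 226 with torin1 in DKO, 222 with MK-8722 in WT and 223 with MK-8722 in DKO, and 216 genes were above DMSO in all 16 such comparisons. These differences make up the rises that chose the genes, so high counts follow from the rule. They are description, with no share over all genes beside them. The median difference per passage was 0.74 to 0.97 with torin1 and 0.42 to 0.62 with MK-8722. With MK-8722 in WT the difference at passages 7, 8, 9 and 11 was 0.14, 0.0036, 0.22 and 0.87 in *Ifit3b* and 0.16, 0.36, 0.13 and 1.47 in *Ifi207*, so that passage 11 stood above the others. Without the WT libraries of passage 11, 203 of the 228 genes met the rule. In the fit across all genes, 212 of the 228 genes were called upregulated (FC at least 1.2, FDR under 0.05) with torin1 in WT, 204 with MK-8722 in WT, 214 with torin1 in DKO and 191 with MK-8722 in DKO. Of all 15401 genes tested, 26.6%, 10.3%, 23% and 5.47% were so called. The rule used these contrasts, so nothing is read from the counts.

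The 12 genes with the largest smallest rise were led by *Rgs16*, a GTPase-activating protein for heterotrimeric G proteins. *Rgs16* was at 1.41, 0.941, 0.377 and 0.48001 CPM in WT DMSO, 4.59, 2.37, 2.58 and 2.66 with torin1 and 3.61, 2.59, 2.26 and 2.03 with MK-8722. *Rgs16* of DKO was at 6.93, 6.09, 4.51 and 2.85 CPM in DMSO, 34.2, 21.6, 21.4 and 13.4 with torin1 and 16.4, 12.8, 18.8 and 9.703 with MK-8722. In both genotypes each drug library was above each DMSO library, and the lowest of its 4 rises was 1.31. Its level in DKO exceeded that in WT under DMSO by 2.73 ± 0.41 (adjusted p = 3.7e-06), where the second value is the SE and p is that of the edgeR quasi-likelihood test, adjusted by Benjamini-Hochberg over all genes tested, as in all tests between groups below.

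*Lrrc32* encodes GARP, the membrane protein that docks latent TGFB. It was at 7.97, 8.31, 7.89 and 11.9 CPM in WT DMSO, 34.2, 27.3, 38.1 and 44.02 with torin1 and 16.4, 16.5, 19.7 and 30.6 with MK-8722. In DKO the values were 18.1, 23.7, 22.1 and 25.9 CPM in DMSO, 63.1, 79.9, 70.5 and 79.3 with torin1 and 41.4, 52.2, 52.5 and 57.2 with MK-8722. Torin1 libraries were the highest in DKO, and in WT the MK-8722 library of passage 11 lay within the range of torin1. *Serpinb8*, an intracellular serine protease inhibitor, had rises of 1.24 and 1.27 in WT and 1.05 and 1.12 in DKO with torin1 and MK-8722. It was the most even of the 3 genes with all rises above 1, at a low mean level of 2.65 CPM.

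*Has2*, the main hyaluronan synthase of fibroblasts, was at 2.25, 3.08, 2.23 and 5.94 CPM in WT DMSO, 7.87, 3.895, 5.195 and 11.5 with torin1 and 5.92, 5.64, 6.59 and 16.9 with MK-8722. In DKO it was at 15.4, 9.06, 12.99 and 15.7 CPM in DMSO, 64.8, 39.5, 52.01 and 51.5 with torin1 and 23.9, 18.96, 31.2 and 34.5 with MK-8722. In WT the DMSO library of passage 11 overlapped both drug groups, whereas in DKO all drug libraries were above all DMSO libraries. *F3*, tissue factor, which starts coagulation, was at 12.1, 12.6, 11.2 and 16.5 CPM in WT DMSO, 23.98, 20.2, 22.4 and 34.9 with torin1 and 32.04, 33.4, 37.5 and 60.3 with MK-8722. In DKO its values were 56.1, 64.1, 46.5 and 46.3 CPM in DMSO, 110.3, 129.8, 91.6 and 112 with torin1 and 105, 137, 123 and 114 with MK-8722, and DMSO did not overlap with either drug in either genotype.

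Rises of the further genes are given with torin1 first and MK-8722 second. *Mettl27*, a methyltransferase-like gene, had rises of 2.97 with torin1 and 1.42 with MK-8722 in WT and of 2.39 and 0.99 in DKO. *Zc3h6*, a CCCH zinc finger gene, had rises of 1.78 and 0.87 in WT and of 1.83 and 1.24 in DKO. In these 2 genes torin1 had the larger rise in both genotypes. *Ndrg1*, induced by hypoxia and other stresses, was the most abundant of the 12, and had rises of 1.05 and 1.53 in WT and of 0.89 and 0.90 in DKO. *Pik3r5*, the p101 regulatory subunit of PI3K gamma, had rises of 0.87 and 1.24 in WT and of 1.29 and 0.86 in DKO. *Tcim*, a small regulator of transcription and immune responses, had rises of 0.94 and 1.75 in WT and of 1.75 and 1.07 in DKO. For *Tcim* and *Pik3r5* MK-8722 had the larger rise in WT and torin1 the larger in DKO. *Ifit3* and *Plin4*, the remaining 2, are described with their groups below.

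**Figure D1:**
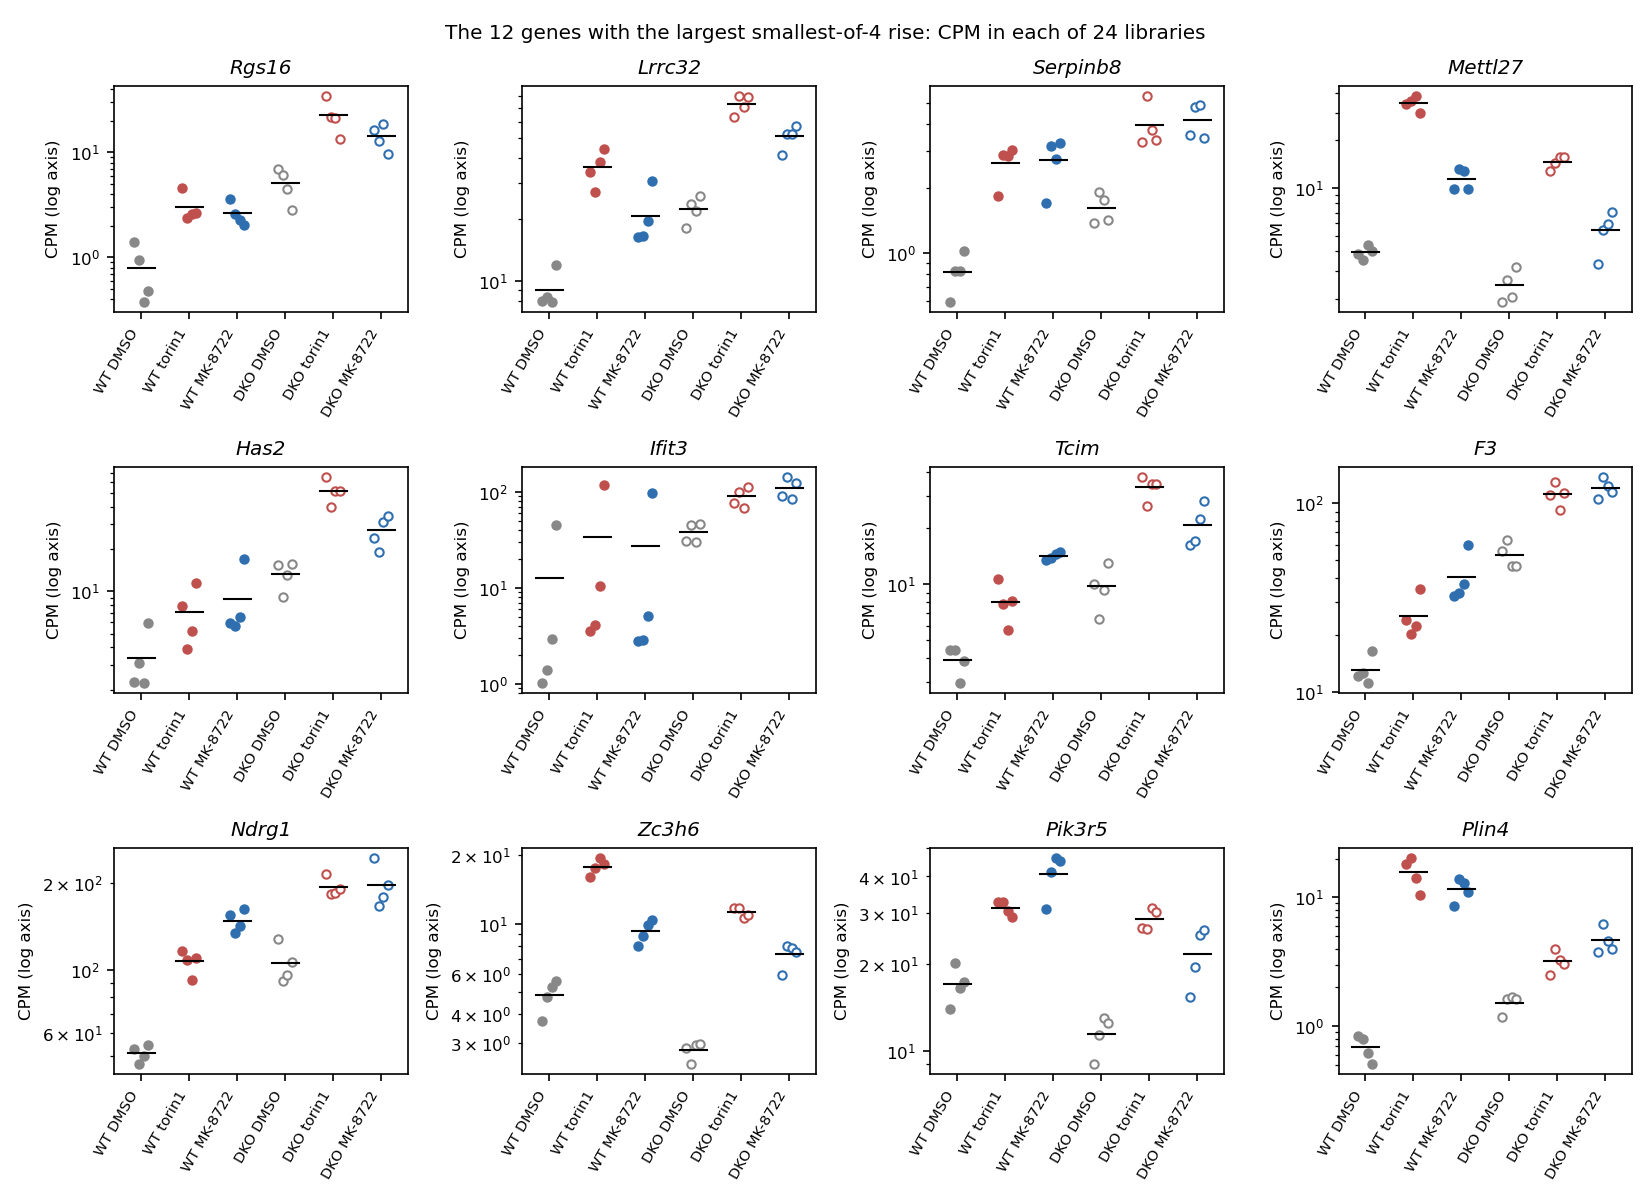
CPM on a log axis in each of the 24 libraries for the 12 genes with the largest smallest rise; filled circles are WT, open circles DKO, grey DMSO, red torin1 and blue MK-8722, 4 libraries per group in order of passage, and the black line is the group mean. Group means of both drugs lie above DMSO in both genotypes, with *Ifit3* spread over more than a factor of 10 in each WT group by the library of passage 11.

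Of 22 lists of genes by function, 16 held at least 1 of the 228 genes and 34 of the 228 were on a list. None of the 228 was on the lists of ATF4 targets, NRF2 antioxidant genes, immediate early transcription factors, growth factor receptors and insulin signalling, collagens and matrix, or the TGF-beta, BMP and Wnt pathway. The last of these lists did not hold *Wnt7a*, *Fzd5*, *Acvr1b* and *Nbl1*, which are genes of these pathways among the 228. As many lists were short, their shares are read beside the 1.94% of all genes at 2 CPM or more that met the rule, and no list was tested.

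Most lysosomal genes that both drugs raised in WT did not meet the rule in DKO. Of 49 measured lysosomal hydrolases and activators, 3 (6.12%) were among the 228 (*Idua*, *Gla* and *Naglu*), and 27 met the rule in WT and not in DKO. Of 40 measured lysosomal membrane proteins and proton pump subunits, 5 (12.5%) were among the 228 (*Tmem175*, *Cd68*, *Gpnmb*, *Slc17a5* and *Mcoln1*), and 24 met it in WT and not in DKO. Of 53 measured autophagy genes, 1 (1.89%) was among the 228 (*Calcoco1*, a receptor for autophagy of the endoplasmic reticulum) and 11 met it in WT and not in DKO. Of all 15401 genes tested, 26.6% and 23% were called higher with torin1 in WT and DKO, and 10.3% and 5.47% with MK-8722. No such share is given for genes called lower. With torin1 37 of 50 tested hydrolases were called higher in WT and none lower, and 12 were called higher and 5 lower in DKO. With MK-8722, 32 were called higher in WT and 8 in DKO, and none lower. Of 41 tested membrane proteins 30 were called higher and 1 lower with torin1 in WT, 10 higher and 11 lower in DKO, and with MK-8722 34 and 5 were called higher in WT and DKO and none lower. Of 54 tested autophagy genes 28 were called higher and 9 lower with torin1 in WT and 20 higher and 13 lower in DKO, and 14 and 3 higher and none lower with MK-8722. Together 8 of 89 lysosomal genes stayed raised in DKO by this rule, against 51 raised by both drugs in WT and not in DKO. Most genes of any kind did not stay either. Of all 886 genes that met the rule in WT, 228 (25.7%) met it in DKO and 658 did not.

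Most of the lysosomal genes that stayed had a smaller rise in DKO. The same held for most of the whole set of 228, where torin1 raised 153 less in DKO than in WT and MK-8722 raised 148 less. Whether the lysosomal genes differ from the rest of the set in this was not tested. *Gpnmb*, a glycoprotein of lysosomes and melanosomes, was at 0.782, 1.05, 0.446 and 0.81002 CPM in WT DMSO, 26.6, 28.8, 22.1 and 14.6 with torin1 and 10.96, 15.1, 11.8 and 10.4 with MK-8722. *Gpnmb* of DKO was at 2.27, 3.39, 2.46 and 1.49 CPM in DMSO, 4.4996, 6.32, 3.46 and 3.02 with torin1 and 3.33, 4.52, 2.83 and 2.64 with MK-8722. In WT the drug libraries were over 9 CPM above DMSO, and in DKO the libraries of both drugs overlapped DMSO. *Idua*, alpha-L-iduronidase, which degrades heparan and dermatan sulfate, was at 1.63, 2.03, 2.09 and 1.86 CPM in WT DMSO, 11.1, 12.1, 10.7 and 10.3 with torin1 and 3.85, 5.06, 3.91 and 4.41 with MK-8722. In DKO it was at 5.55, 5.24, 4.48 and 3.61 CPM in DMSO, 13.01, 13.8, 11.9 and 11.7 with torin1 and 6.32, 7.02, 6.94 and 6.17 with MK-8722, with no overlap of DMSO with either drug and with DMSO above that of WT. *Mcoln1*, the lysosomal calcium channel TRPML1, was at 39.1, 39.7, 39.3 and 38.6 CPM in WT DMSO, 112, 114, 116 and 103 with torin1 and 87.8, 101, 105 and 92.03 with MK-8722. In DKO the values were 30.5, 27.6, 25.3 and 28.4 CPM in DMSO, 41.1, 44.03, 41.3 and 43.3 with torin1 and 37.2, 37.7, 32.4 and 37.9 with MK-8722, so that the drug groups of DKO reached about the DMSO level of WT.

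*Naglu*, an enzyme of heparan sulfate degradation, had rises of 1.41 and 0.93 in WT and of 0.80 and 0.31 in DKO with torin1 and MK-8722, and *Gla*, alpha-galactosidase A, had rises of 0.94 and 1.22 in WT and of 0.42 and 0.48 in DKO. *Slc17a5*, the sialic acid exporter of lysosomes, had rises of 0.70 and 0.62 in WT and of 0.41 and 0.52 in DKO. *Tmem175*, the lysosomal potassium and proton channel, had rises of 1.40 and 0.51 in WT and of 1.62 and 0.61 in DKO. *Tmem175* was the only lysosomal gene of the 8 with a larger rise in DKO for both drugs. *Calcoco1* also had its larger rise with torin1 in DKO, with 70.2, 64.1, 65.03 and 69.7 CPM in WT DMSO and 239, 237, 253 and 240.1 with torin1, and 47.1, 45.1, 47.2 and 55.1 CPM in DKO DMSO and 211, 199.9, 209.5 and 209 with torin1. With MK-8722 it was at 96.7, 103, 101 and 93.5 CPM in WT and 70.4, 69.3, 70.04 and 72.9 CPM in DKO, between DMSO and torin1 without overlap.

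**Figure D2:**
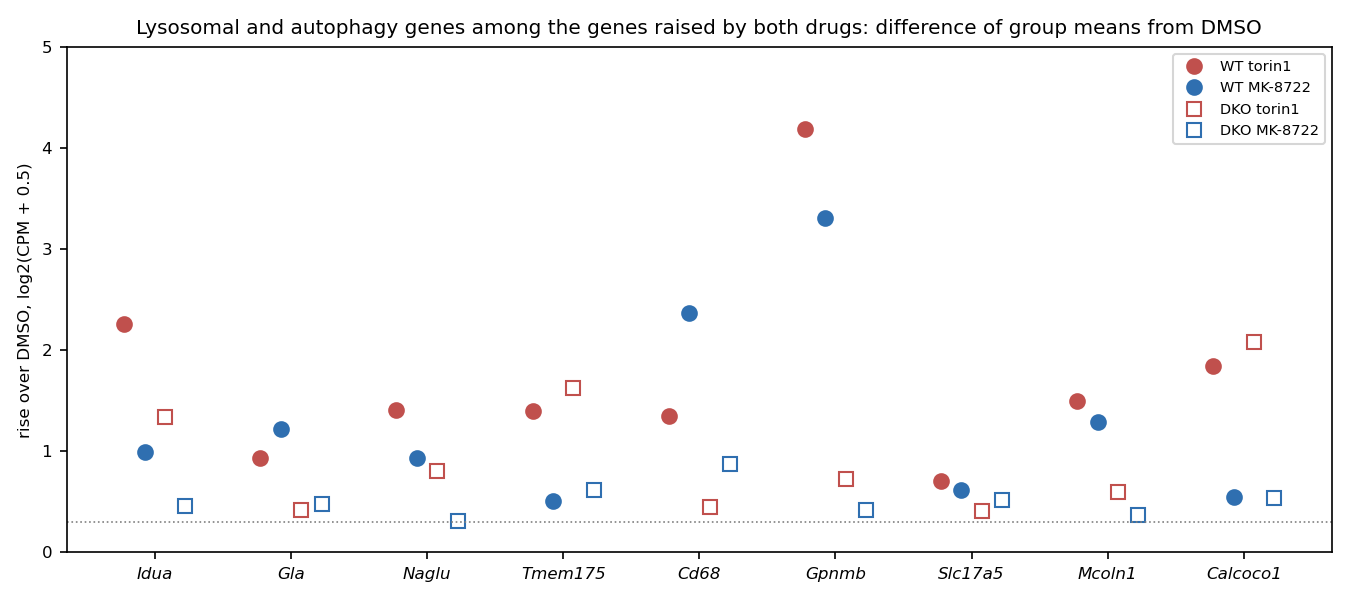
Rise over DMSO on the log2(CPM + 0.5) scale (difference of group means of 4 libraries) of the 8 lysosomal genes and *Calcoco1*; filled circles are WT, open squares DKO, red torin1 and blue MK-8722, and the dotted line is the 0.3 of the rule. *Gpnmb* has rises of 4.19 and 3.31 in WT and of 0.73 and 0.42 in DKO, whereas *Tmem175* has its larger rises in DKO.

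*Cd68* is also a marker of macrophages. It was at 2.03, 2.26, 1.85 and 1.53 CPM in WT DMSO, 6.23, 6.84, 5.23 and 4.42 with torin1 and 10.5, 14.6, 12.7 and 10.2 with MK-8722, and in DKO at 3.85, 5.74, 4.11 and 4.17 CPM in DMSO, 6.68, 8.47, 4.66 and 5.5998 with torin1 and 7.43, 10.8, 7.99 and 8.19 with MK-8722. It was among the few genes with MK-8722 above torin1 in both genotypes. The summed level of 9 macrophage and leukocyte markers was 2.63 to 4.05 TPM in WT DMSO, 7.23 to 10.8 with torin1, 15.8 to 22.4 with MK-8722, and in DKO 5.91 to 9.22, 7.09 to 12.5 and 11.9 to 17.4 TPM. In RNA of whole cultures, more cells of a type and more RNA per cell cannot be told apart. *Cd68* was the only marker of the 9 at 1 TPM or more, and *Ptprc*, *Adgre1*, *Tyrobp*, *Cd3e* and *Cd79a* were under 0.1 TPM. Likewise *Krt8*, a keratin, was the only 1 of 8 epithelial markers at 1 TPM or more, and *Krt5*, *Krt14*, *Cldn4* and *Cldn7* were under 0.1. The summed level of the 8 was 2.16 to 3.92 TPM in WT DMSO, 4.81 to 6.19 with torin1 and 2.97 to 4.53 with MK-8722, and in DKO 2.38 to 3.95, 8.51 to 12.4 and 4.92 to 9.64 TPM. *Krt8* had rises of 0.90 and 0.30 in WT and of 1.44 and 0.92 in DKO.

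Lipid droplet genes were a further group. Of 33 measured genes of fatty acid oxidation, lipid droplets and PPAR targets, 4 were among the 228 (*Plin4*, *Pparg*, *Plin3* and *Pnpla2*) and 1 met the rule in WT and not in DKO. Of 41 tested genes of the list, 17 were called higher and 6 lower with torin1 in WT, 13 and 7 in DKO, and with MK-8722 8 and 7 in WT and 5 and 5 in DKO. In the same order, 26.6%, 23%, 10.3% and 5.47% of all genes tested were called higher. For genes called lower no share is given, so nothing is read from those counts. *Plin4*, a coat protein of lipid droplets, was at 0.844, 0.79004, 0.617 and 0.51001 CPM in WT DMSO, 18.1, 20.1, 14.2 and 10.5 with torin1 and 8.54, 13.99, 13.01 and 11.001 with MK-8722. *Plin4* of DKO was at 1.18, 1.62, 1.69 and 1.62 CPM in DMSO, 2.49, 3.96, 3.25 and 3.05 with torin1 and 3.77, 6.25, 4.58 and 3.96 with MK-8722. All drug libraries were above all DMSO libraries in both genotypes, but the rises in WT were the second largest of the 228 with torin1 and the largest with MK-8722. *Plin4* overlaps *Hdgfl2* on the opposite strand, *Has2* overlaps *Has2os* and *Idua* overlaps *Dgkq*, and as the counting is not stated to use strand, reads of these pairs may not be told apart.

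*Plin3*, which coats nascent droplets, was at 65.3, 70.2, 72.5 and 70.2 CPM in WT DMSO, 128, 139, 128 and 119.6 with torin1 and 105, 119, 126 and 115 with MK-8722. In DKO it was at 63.03, 64.4, 66.8 and 68.3 CPM in DMSO, 93.8, 101, 103 and 94.4 with torin1 and 76.7, 80.4, 85.2 and 85.5 with MK-8722. *Pnpla2*, the triglyceride lipase ATGL, had tight groups, with 49.8, 49.7, 45.6 and 45.4 CPM in WT DMSO, 62.4, 61.4, 62.5 and 63.02 with torin1 and 64.9, 59.9, 59.7 and 56.5 with MK-8722. In DKO *Pnpla2* was at 64.98, 67.9, 67.2 and 66.3 CPM in DMSO, 101, 104, 98.8 and 96.4 with torin1 and 83.2, 84.1, 82.04 and 83.1 with MK-8722, with no overlap between any of these 3 groups. *Pparg*, the nuclear receptor of adipogenesis, was low, and in DKO its DMSO libraries, at 1.46, 1.23, 0.954 and 0.6296 CPM, overlapped torin1 at 1.56, 1.66, 1.62 and 1.02 and MK-8722 at 1.404, 1.36, 1.25 and 1.75 CPM. *Abca1*, which exports cholesterol, was the only one of 39 measured sterol and fatty acid synthesis genes among the 228, and had rises of 1.69 and 0.80 in WT and of 1.65 and 0.54 in DKO.

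Of 28 measured genes of ubiquitin ligases and protein degradation, 2 were among the 228, and they had the widest gaps between the drugs. *Klhl24*, a substrate adaptor of cullin 3 ligases, was at 9.06, 10.004, 10.7 and 10.9 CPM in WT DMSO, 86.98, 89.9, 80.2 and 85.3 with torin1 and 26.99, 28.8, 27.2 and 24.3 with MK-8722. *Klhl24* of DKO was at 14.2, 14.1, 15.3 and 20.8 CPM in DMSO, 112, 98.9, 115 and 99.8 with torin1 and 26.97, 24.7, 27.6 and 27.4 with MK-8722, again with MK-8722 between DMSO and torin1. *Fbxo32*, the atrogin-1 F-box protein of muscle wasting and a FOXO target, was at 7.099, 7.52, 7.51 and 8.22 CPM in WT DMSO, 35.03, 33.4, 30.8 and 33.2 with torin1 and 10.3, 10.2, 10.1 and 10.1 with MK-8722. In DKO it was at 6.202, 6.05, 7.16 and 8.75 CPM in DMSO, 38.4, 32.6, 41.8 and 40.7 with torin1 and 8.94, 9.54, 9.57 and 10.8 with MK-8722. *Fbxo32* was the only 1 of 25 measured FOXO targets among the 228. Of 27 tested FOXO targets, 14 were called higher and 5 lower with torin1 in WT and 16 and 5 in DKO, and with MK-8722 5 and 8 in WT and 1 and 3 in DKO. Of all genes tested, 26.6%, 23%, 10.3% and 5.47% were called higher in these contrasts. No such share is given for genes called lower, so nothing is read from the counts of lower calls.

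Other lists gave 1 or 2 genes each. *Rb1*, the retinoblastoma protein, had rises of 0.98 and 0.43 in WT and of 0.86 and 0.44 in DKO. *Pmaip1*, the BH3-only protein NOXA, had rises of 0.96 and 0.70 in WT and of 1.42 and 0.64 in DKO. *Prkab2*, the beta 2 subunit of AMPK, had rises of 0.87 and 0.36 in WT and of 0.53 and 0.35 in DKO. *Rora*, a nuclear receptor that feeds into the circadian clock, had its larger rises with torin1 (1.66 in WT and 1.27 in DKO). *Arrdc2*, an arrestin domain gene, and *Slc2a8*, the glucose transporter GLUT8, were 2 of 21 measured genes of TXNIP, arrestin domains and glucose sensing, and had smallest rises of 0.33 and 0.32. *Boc*, a coreceptor of Hedgehog ligands, had rises of 0.55 and 0.40 in WT and of 0.32 and 0.39 in DKO.

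Secreted signals formed a further set. Of 24 measured chemokines, cytokines and receptors, 3 were among the 228. The monocyte chemokines *Ccl7* and *Ccl2* were both among them. *Ccl7* had rises of 1.14 and 1.15 in WT and of 0.82 and 0.63 in DKO, and *Ccl2* had rises of 0.59 and 0.85 in WT and of 0.43 and 0.31 in DKO. *Ccl2* of DKO was at 45.1, 62.2, 55.3 and 106 CPM in DMSO, 63.5, 86.4, 79.9 and 125 with torin1 and 58.6, 75.6, 72.9 and 121 with MK-8722, so that the groups overlapped although each drug library was above DMSO of its own passage. *Il1rn*, the interleukin 1 receptor antagonist, had rises of 1.41 and 1.07 in WT and of 1.19 and 0.56 in DKO.

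Further groups were put together after the 228 genes were seen and serve as description. *Gdnf*, a neurotrophic ligand, and *Gfra1*, its receptor, were both among the 228. *Gdnf* was at 14.1, 15.3, 16.5 and 23.4 CPM in WT DMSO, 29.1, 25.1, 23.9 and 32.6 with torin1 and 20.8, 25.9, 30.5 and 42.2 with MK-8722, and *Gfra1* at 3.002, 2.52, 2.85 and 4.05 CPM in DMSO, 17.1, 15.05, 14.8 and 19.3 with torin1 and 10.2, 8.27, 9.39 and 12.4 with MK-8722. In DKO *Gfra1* was at 20.8, 17.3, 12.1 and 17.3 CPM in DMSO, 31.6, 33.01, 29.4 and 30.7 with torin1 and 27.9, 20.4, 16.1 and 22.3 with MK-8722, so that its MK-8722 libraries overlapped DMSO. Another group was that of dystrophin-associated proteins and of enzymes that glycosylate dystroglycan. *Utrn*, the autosomal relative of dystrophin, had rises of 0.55 and 0.30 in WT and of 0.89 and 0.38 in DKO. *Sspn*, sarcospan, had rises of 1.46 and 0.66 in WT and of 0.97 and 0.35 in DKO. *Pomt1* and *Pomgnt2*, glycosyltransferases of this pathway, had smallest rises of 0.36 and 0.46. Beside *Pik3r5*, the catalytic subunit *Pik3cd* of PI3K delta had rises of 0.38 and 0.35 in WT and of 0.60 and 0.41 in DKO.

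Members closest to the limit of the rule were *Acvr1b*, *Kansl1l* and *Mybl1*, each with a smallest rise of 0.30. *Ddah2*, *Il1rap* and *Tyk2*, with smallest rises of 0.29997, 0.299 and 0.299, fell just outside it.

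The rule set a floor on the rise in each genotype but not on their difference. The change of the drug effect in DKO minus WT, from the fit across all genes, had a log2 median over the 228 genes of -0.08 with torin1 and of -0.07 with MK-8722. On the scale of the rule, both differences were under 0.5 in size in 170 genes and under 1 in 214. The rise was at least 0.5 smaller in DKO with both drugs in 20 genes, and at least 0.5 larger with both in 1. The largest decreases were those of *Gpnmb*, at -3.98 ± 0.41 (SE) for torin1 and -3.47 ± 0.42 for MK-8722, and *Plin4*, at -3.40 ± 0.35 and -2.47 ± 0.35. *Wnt7a*, a Wnt ligand, followed with -1.95 ± 0.83 and -2.77 ± 0.77, from levels in WT of 0.281, 0.226, 0.0686 and 0 CPM in DMSO, 1.91, 1.11, 0.516 and 0.1402 with torin1 and 2.46, 2.27, 1.74 and 0.651 with MK-8722. With so few counts in WT its effect there is poorly known, while in DKO it was at 9.202, 9.71, 8.81 and 6.26 CPM in DMSO, 17.1, 15.7, 11.5 and 9.5996 with torin1 and 16.1, 16.6, 16.2 and 11.4 with MK-8722.

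The largest increases of the torin1 effect were those of *Itgb3*, integrin beta 3, at 1.38 ± 0.32 (SE), of *Has2* at 0.96 ± 0.52 and of *Tcim* at 0.78 ± 0.29. *Itgb3* was at 1.46, 1.77, 1.47 and 1.86 CPM in DKO DMSO and 5.503, 5.18, 4.87 and 6.95 with torin1, and in WT at 6.38, 6.85, 6.48 and 9.9002 and 9.65, 8.63, 10.05 and 12.2 CPM. For MK-8722 they were those of *Tnfrsf11b*, osteoprotegerin, at 0.78 ± 0.50, *Krt8* at 0.67 ± 0.29 and *Ifit3b* at 0.66 ± 1.49. No p is given for these differences, because the rule bounds both effects.

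**Figure D3:**
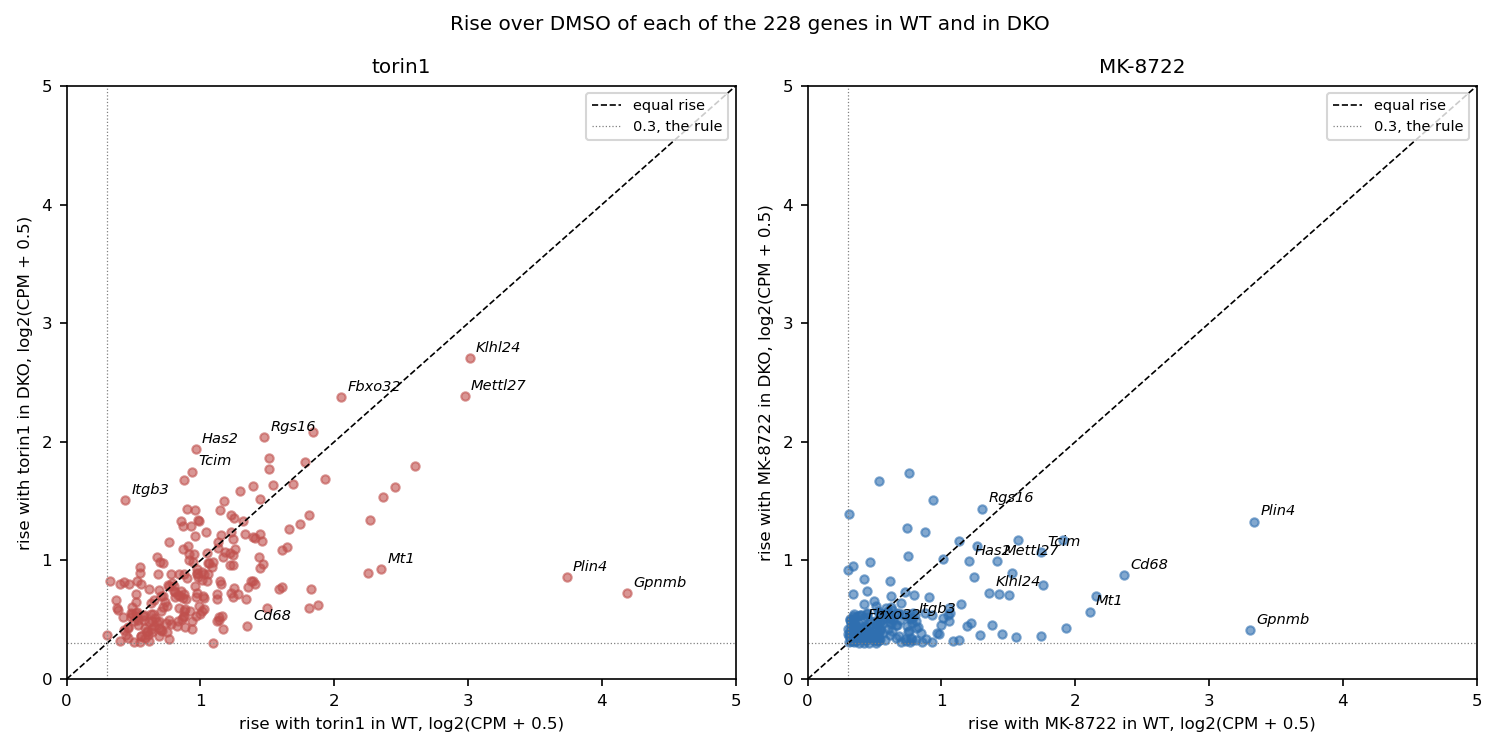
Rise over DMSO on the log2(CPM + 0.5) scale in WT (horizontal) and DKO (vertical) for torin1 (left) and MK-8722 (right), 1 point per gene for the 228 genes; the dashed line marks equal rises and the dotted lines the 0.3 of the rule. *Klhl24* and *Mettl27* have large rises with torin1 in both genotypes, and *Gpnmb* and *Plin4* lie far below the dashed line in both panels.

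Interferon-stimulated genes, which are switched on by type I interferon, were the list with the most members. Of 40 measured, 7 were among the 228 (*Ifit3*, *Rsad2*, *Oas3*, *Ifit2*, *Stat2*, *Ifit1* and *Ifit3b*), and 3 met the rule in WT and not in DKO. *Ifit3*, of the IFIT proteins that bind viral RNA, was at 1.02, 1.38, 2.91 and 44.9 CPM in WT DMSO, 3.57, 4.0999, 10.5 and 117 with torin1 and 2.802, 2.87, 5.04 and 96.98 with MK-8722. *Ifit3* of DKO was at 31.001, 44.6, 30.02 and 45.97 CPM in DMSO, 76.6, 100.4, 67.9 and 113 with torin1 and 90.6, 141, 83.7 and 122 with MK-8722. The WT library of passage 11 was at the level of DKO in each treatment, and passages 7 to 9 of WT were far below it. *Ifit3* and *Ifit3b* are near-identical copies, so that the split of reads between them is uncertain.

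*Oas3*, an oligoadenylate synthetase, was at 4.88, 3.69, 11.2 and 120.2 CPM in WT DMSO, 7.47, 8.02, 26.4 and 218 with torin1 and 8.497, 6.27, 15.5 and 165 with MK-8722. In DKO it was at 58.01, 65.5, 50.2 and 83.95 CPM in DMSO, 115, 132, 107 and 161 with torin1 and 87.95, 106, 78.2 and 117 with MK-8722. *Stat2*, which carries the interferon signal to the nucleus, was at 23.05, 24.1, 34.6 and 149 CPM in WT DMSO, 31.8, 32.9, 58.2 and 194 with torin1 and 33.4, 39.4, 54.9 and 227 with MK-8722. In every one of these groups the drug library was above the DMSO library of its own passage, and in WT the groups as a whole overlapped.

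Within a passage, the mean of the 7 genes rose by 0.81 to 1.15 with torin1 and by 0.50 to 0.81 with MK-8722 in WT, on the log2(CPM + 0.5) scale, including 0.91 and 0.81 at passage 11. In DKO it rose by 0.73 to 0.85 and by 1.00 to 1.197. The mean of the other 221 genes rose by 1.00 to 1.07 and 0.58 to 0.74 in WT and by 0.81 to 0.90 and 0.45 to 0.55 in DKO. The mean of the 7 genes thus had its larger rise with torin1 in WT and with MK-8722 in DKO, but single genes differed from it. In WT *Stat2* rose by 0.50 with torin1 and 0.62 with MK-8722 and *Ifit2* by 0.71 and 0.75, and in DKO *Oas3* rose by 1.00 and 0.60. In the fit without passage, 1 of the 7, *Ifit2*, was called upregulated in each of the 4 drug contrasts, with SEs of 0.18 to 1.12 over the 7 genes. Without the WT libraries of passage 11, 6 of the 7 still met the rule, and *Ifit3b* did not.

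Between genotypes, 3 of the 7 were called higher in DKO than in WT under DMSO, 3 under torin1 and 4 under MK-8722, where 23.5%, 24% and 23.3% of all genes tested were so called. Without the WT libraries of passage 11 all 7 were called higher under each treatment, where 22%, 25.1% and 22.5% of 15489 genes were, by 0.80 to 5.39, 0.80 to 4.87 and 1.18 to 5.90 on the log2 scale. Those libraries were left out because such genes were high in them. The higher calls without them follow in part from that choice and are description. *Rsad2*, the antiviral enzyme viperin, was at 1.71, 1.14, 1.74 and 29.3 CPM in WT with MK-8722 and at 62.3, 107, 66.97 and 120.2 CPM in DKO, a difference of 3.46 ± 0.85 (adjusted p = 0.0012) with all libraries and of 5.90 without passage 11 of WT. *Nlrc5*, the transactivator of MHC class I genes, was the 1 of 19 measured MHC class I genes among the 228, and its DKO libraries, at 8.67, 10.9, 8.07 and 11.5 CPM in DMSO, did not share the high level of the other interferon-induced genes. It was at 12.5, 12.7, 14.9 and 37.3 CPM in WT DMSO, 27.4, 28.2, 32.1 and 72.03 with torin1 and 21.2, 23.3, 23.1 and 62.9 with MK-8722. What sets the WT libraries of passage 11 apart was not tested.

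**Figure D4:**
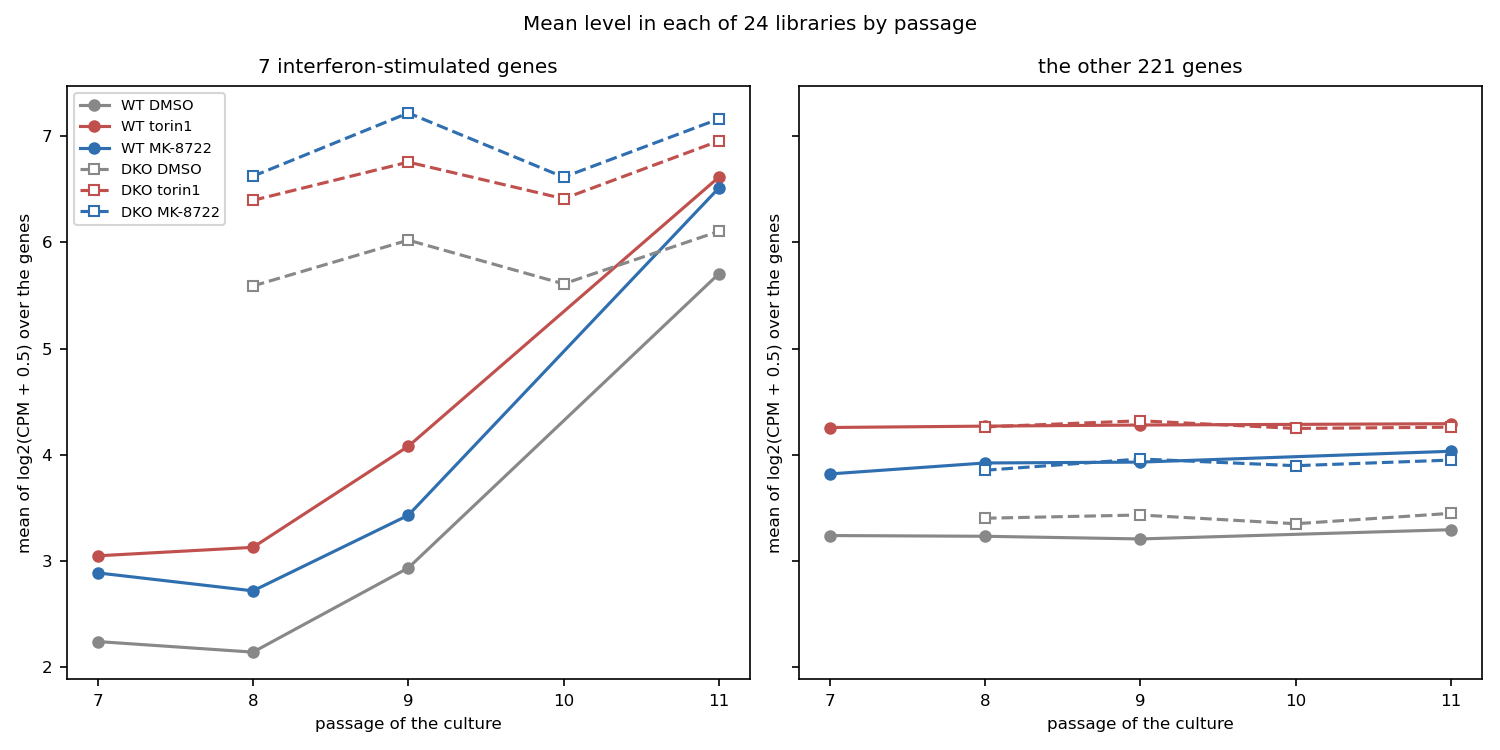
Mean of log2(CPM + 0.5) over the 7 interferon-stimulated genes (left) and the other 221 genes (right) in each of the 24 libraries by passage; filled circles with solid lines are WT, open squares with dashed lines DKO, grey DMSO, red torin1 and blue MK-8722. The 7 genes go from 2.24 at passage 7 to 5.70 at passage 11 in WT DMSO, and both drugs lie above DMSO at each passage in both panels.

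The levels of the genes were then compared between genotypes under each treatment, which the rule did not bound although it used the same libraries. Under DMSO, 89 of the 228 genes were called higher in DKO than in WT and 66 lower, where 23.5% and 24.6% of all genes tested were so called. Under torin1 the counts were 79 and 78, against 24% and 27.8%, and under MK-8722 73 and 83, against 23.3% and 25.4%. Scaled by library size alone, the split under torin1 was 62 higher and 95 lower, and the median of all genes was -0.16 in place of -0.03 on the log2 scale. In shares, 39.0%, 34.6% and 32.0% of the 228 genes were higher and 28.9%, 34.2% and 36.4% lower under DMSO, torin1 and MK-8722. All 228 genes had a mean of at least 2 CPM, whereas the genes tested include lower ones. Shares of the 228 and of all genes tested are thus of unlike sets, here and below. The 3 comparisons share no library. A gene was called higher in DKO under all 3 in 57 cases and lower in 55, against 16.2% and 17.9% of all genes tested, and 33 genes were called under none, against 34%.

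Some genes had a wide gap between the lines under every treatment. *Gm8995*, a transcribed pseudogene of chromosome 7, was at 1.29, 1.03, 1.34 and 3.62 CPM in WT DMSO and 117, 122, 105 and 107 CPM in DKO DMSO, higher by 5.99 ± 0.37 (adjusted p = 3.1e-12). It was higher by 5.91 ± 0.36 under torin1 and 5.53 ± 0.35 under MK-8722, and reads it shares with related copies could have been split. *Wnt7a* was higher in DKO under DMSO by 5.94 ± 0.55 (adjusted p = 2.3e-09), and *Dynap*, a membrane protein that binds dynactin, by 4.70 ± 0.26 (adjusted p = 5.6e-13). *Dynap* was at 0.219, 0.226, 0.309 and 0.42001 CPM in WT DMSO and 6.85, 5.47, 7.38 and 10.01 CPM in DKO DMSO. Under MK-8722 *Ifi207*, of the interferon-inducible p200 family, was higher by 4.40 ± 0.50 (adjusted p = 7.1e-08), at 0.339, 0.236, 0.389 and 2.64 CPM in WT and 16.6, 25.96, 14.6 and 16.3 CPM in DKO. None of these groups overlapped between genotypes. As *Wnt7a*, *Dynap* and *Ifi207* were low in WT, they reached the mean of 2 CPM over 24 libraries through DKO. The filter thus favoured this direction, and the p-values of these genes are description.

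In the other direction *Stbd1*, which tethers glycogen to membranes for autophagy, was at 13.01, 11.4, 11.3 and 13.3 CPM in WT DMSO and 1.86, 1.16, 1.14 and 0.663 CPM in DKO DMSO, with a log2 fold change of -3.29 ± 0.18 (adjusted p = 3.4e-13). *Slc35d2*, a nucleotide sugar transporter, had a log2 fold change of -2.78 ± 0.21 (adjusted p = 1.0e-10) and *Boc* of -2.59 ± 0.16 (adjusted p = 3.3e-12). *Mt1*, a metallothionein that binds zinc and copper, was at 217, 199.8, 203 and 191 CPM in WT with torin1 and 23.99, 24.8, 26.2 and 23.4 CPM in DKO, a log2 fold change of -2.92 ± 0.08 (adjusted p = 2.4e-18), and under MK-8722 this was -3.09 ± 0.08 (adjusted p = 9.1e-19). *Mt1* had rises of 2.35 and 2.11 in WT and of 0.93 and 0.57 in DKO. *Stbd1* and *Slc35d2*, low in DKO, reached the mean of 2 CPM over 24 libraries through WT. *Boc* was also low in DKO DMSO, at 1.08 to 1.78 CPM. The filter thus favoured the lower calls of these genes, and their p-values are description.

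In 6 of the 228 genes the call changed direction between treatments (0.76% of all genes tested). These were *Plin4*, *Crebrf*, *Cd68*, *Slc27a1*, *Gpnmb* and *Rasa3*, of which *Crebrf*, *Slc27a1* and *Rasa3* are named after their values were seen. *Slc27a1*, a fatty acid transporter, was at 14.1, 16.4, 13.03 and 13.98 CPM in WT DMSO and 32.7, 31.6, 30.3 and 33.4 CPM in DKO DMSO, and with MK-8722 at 56.8, 63.1, 58.01 and 47.2 CPM in WT and 42.98, 43.96, 40.4 and 45.4 CPM in DKO. *Rasa3*, a GTPase-activating protein for Ras, was higher in DKO under torin1, with 273, 247, 230.4 and 232 CPM in WT and 306, 286, 273 and 261 CPM in DKO, and lower under MK-8722, with 266, 271, 285 and 276 and 196, 202, 204 and 207 CPM. The other 5 were higher in DKO under DMSO and lower under MK-8722, and 3 of them (*Plin4*, *Crebrf* and *Gpnmb*) were lower under torin1 too.

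The drugs were also compared directly, without DMSO. This is the difference between rises that the rule used, although the rule set no bound on it. Its calls and p-values therefore describe the chosen genes. In WT, 99 of the 228 genes were called higher with torin1 than with MK-8722 and 16 lower, where 24.9% and 20% of all genes tested were so called. In DKO the counts were 106 and 9, against 21.1% and 19.3%. The comparisons in WT and in DKO share no library, and 68 genes were called higher with torin1 in both, against 14.9% of all genes tested. Those called lower in both were 4, against 13.8%, namely *Gask1b*, *Cd68*, *Tmem151a* and *Rusc2*. The rule asked for a rise with each drug, so that a gene that only one of them raised could not enter, and the medians of 0.24 in WT and 0.28 in DKO for torin1 against MK-8722 stand beside 0.05 and 0.00 for all genes tested.

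The largest differences toward torin1 were in *Fbxo32*, by 1.62 ± 0.09 (adjusted p = 1.6e-12) in WT and 1.96 ± 0.09 (adjusted p = 9.4e-14) in DKO, and in *Klhl24*, by 1.60 ± 0.09 (adjusted p = 2.2e-12) in WT and 1.97 ± 0.09 (adjusted p = 9.4e-14) in DKO. *Mettl27* was higher with torin1 by 1.51 ± 0.15 (adjusted p = 1.2e-08) in WT, and *Calcoco1* by 1.53 ± 0.05 (adjusted p = 3.0e-16) in DKO. The largest toward MK-8722 in WT, as log2 fold changes of torin1 against MK-8722, were -1.16 ± 0.18 (adjusted p = 6.0e-06) in *Cd68*, -1.04 ± 0.26 (adjusted p = 0.0015) in *Dynap* and -0.89 ± 0.20 (adjusted p = 6.1e-04) in *Tcim*. In DKO they were -0.71 ± 0.27 (adjusted p = 0.028) in *Tnfrsf11b*, -0.70 ± 0.10 (adjusted p = 5.3e-06) in *Tmem151a* and -0.51 ± 0.18 (adjusted p = 0.019) in *Ifit2*. *Tnfrsf11b* was at 15.7, 12.5, 11.2 and 9.24 CPM with torin1 and 19.7, 16.5, 21.3 and 20.8 CPM with MK-8722 in DKO, without overlap of the groups. Its call was lost with DESeq2 (adjusted p = 0.083) and when replicate 1, 2 or 3 of DKO torin1 or replicate 2, 3 or 4 of DKO MK-8722 was left out, with an adjusted p in edgeR of 0.052 to 0.098. The call of *Ifit2* was lost without replicate 3 or 4 of DKO torin1 or replicate 1 of DKO MK-8722, with an adjusted p of 0.058 to 0.086.

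In *Rgs16*, *Serpinb8* and *Has2*, which were picked here after their values were seen, the drugs were not told apart in WT. The log2 fold changes of torin1 from MK-8722 there were 0.16 ± 0.36 (adjusted p = 0.73) for *Rgs16*, -0.13 ± 0.21 (adjusted p = 0.63) for *Serpinb8* and -0.38 ± 0.37 (adjusted p = 0.39) for *Has2*, so that the interval of 2 SE on either side included 0 for each and reached beyond 0.5 in at least 1 direction.

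Transcript use was examined as the share of a gene's counts that fell on its most abundant transcript, which the rule did not use. Of the 228 genes, 187 had at least 10 mean counts in that transcript and in the others. With limma across 10234 genes, the share was called changed (adjusted p under 0.05) in 8 of the 187 with torin1 in WT, against 2.8% of all genes, in 3 with MK-8722 in WT, against 0.156%, in 4 with torin1 in DKO, against 2.43%, and in 1 with MK-8722 in DKO, against 0.0586%. In all 10 of the 187 genes were called in at least 1 contrast.

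The main transcript of *Plekhn1* held a smaller share with torin1 in both genotypes, 54.6% ± 3.58 (SD, n = 4) of counts in WT DMSO and 41.05% ± 1.55 with torin1 (limma adjusted p = 4.1e-05), and 63.5% ± 2.32 (SD, n = 4) of counts in DKO DMSO and 46.5% ± 1.66 with torin1 (limma adjusted p = 2.9e-06). *Vamp1*, a SNARE of synaptic and secretory vesicles, moved the other way in DKO, where its main transcript held 51.3% ± 1.35 (SD, n = 4) of counts in DKO DMSO and 67.5% ± 2.39 with torin1 (limma adjusted p = 3.9e-04) and 66.4% ± 2.36 with MK-8722 (limma adjusted p = 0.0073). *Hsd3b7*, an enzyme of bile acid synthesis, had 16.4% ± 3.62 (SD, n = 4) of counts in WT DMSO and 34.8% ± 2.94 with torin1 (limma adjusted p = 9.1e-04), and 21.0002% ± 0.812 (SD, n = 4) of counts in DKO DMSO and 33.6% ± 4.73 with torin1 (limma adjusted p = 0.041). The DKO call of *Hsd3b7* was lost when any of several single libraries was left out, and that of *Vamp1* with MK-8722 without the DKO libraries of passage 8 (adjusted p = 0.058).

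*Idua* had 2.69% ± 5.39 (SD, n = 4) of counts in WT DMSO and 22.98% ± 8.93 with torin1 (limma adjusted p = 0.0014) and 40.3% ± 13.3 with MK-8722 (limma adjusted p = 5.8e-04). The transcript was listed at 0 in 3 of the 4 WT DMSO libraries and held 10.8% in the other, at 1.63, 2.03, 2.09 and 1.86 CPM for the gene, which overlaps *Dgkq*. *Xdh*, xanthine dehydrogenase, had its main transcript listed at 0 in all 4 WT DMSO libraries and at a mean of 51.1% with torin1 and 57.4% with MK-8722. As *Xdh* was at 0.447, 0.339, 0.378 and 0.80999 CPM in WT DMSO, the shares of both genes in WT DMSO rest on few reads, and salmon can list a transcript at 0 when it cannot place its reads. *Celsr1*, a cadherin of planar cell polarity, had 68.7% ± 8.003 (SD, n = 4) of counts in WT DMSO and 55.5% ± 2.68 with torin1 (limma adjusted p = 0.040) and 48.9% ± 2.18 with MK-8722 (limma adjusted p = 0.020). It lost both calls without the WT libraries of passage 11 (adjusted p = 0.12 and 0.081), and when any of several single WT libraries was left out.

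Of the 228 genes, 216 (94.7%) are protein coding, against 83.4% of all genes tested and 96.2% of the 658 genes raised by both drugs in WT and not in DKO. The others of the 228 are 4 lincRNAs, 5 pseudogenes, 2 processed transcripts and 1 antisense gene. The 228 and the 658 had to reach a mean of 2 CPM, and not all genes tested did. The 658 are thus the closer comparison. The 228 genes lie on 20 chromosomes, with at most 19 on any of them. Their main transcripts had a median length of 2811 bases, against 2227 for all genes tested and 2754.5 for the 658. Their median level was 10.1 TPM, against 15.5 and 17.5. On the same strand 16 overlapped another tested gene, and 45 did on the opposite strand.

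Promoters were taken from RefSeq (GRCm38.p6) as the 250 bases before a start site and the 50 bases from it on, 229 of them for 172 of the 228 genes, and were searched on both strands for 10 motifs. The E-box CACGTG at the core of the CLEAR element was in 11.8% of them, in 24.9% of 638 promoters of the genes raised by both drugs in WT and not in DKO, in 9.77% of 13497 promoters of genes tested and in 7.15% of all 32851. The longer core TCACGTGA, which contains the E-box, was in 2.62%, 7.99%, 1.79% and 0.974% of these sets. The AP-1 motif TGANTCA was in 9.17%, 6.27%, 5.27% and 7.81% of the same sets, the FOXO motif GTAAACA in 3.06%, 2.82%, 2.42% and 3.65%, and the CCAAT box in 44.1%, 31.2%, 38.1% and 37.4%. The antioxidant response element TGACNNNGC was in 10.5%, 20.2%, 13.97% and 12.4%, and the GC box GGGCGG in 62.4%, 64.3%, 62.3% and 35.7%. The cyclic AMP response element TGACGTCA was in 1.75%, 3.29%, 2.95% and 1.79%, the ATF4 site TGATGCAA in 1.31%, 0.313%, 0.570% and 0.895%, and the D-box TTATGTAA in 0 of the 229 and in 0.784%, 0.504% and 0.938% of the others. These shares are descriptions of letters, without a test.

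**Figure D5:**
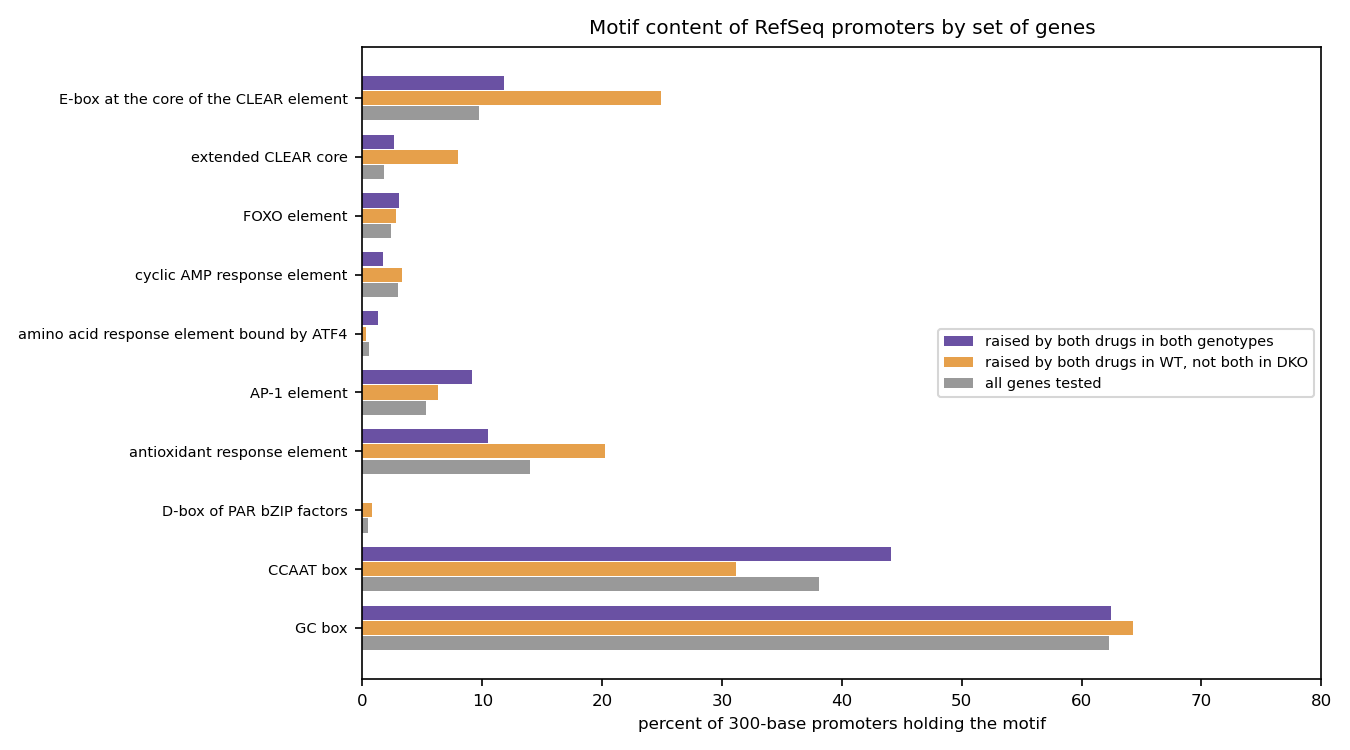
Percent of 300-base RefSeq promoters that hold each of 10 motifs on either strand, for the genes raised by both drugs in both genotypes (229 promoters), those raised by both in WT and not in DKO (638) and all genes tested (13497). The E-box bar of the second set, 24.9%, is the longest of its group, with 11.8% in the first set and 9.77% in the third.

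Promoters of 3 genes with an E-box and of 2 leading genes with AP-1 motifs are shown to make these matches visible, 5′ to 3′ on the strand of the gene, with matches to any motif searched other than the CCAAT and GC boxes in capitals. They are *Gla* (chrX:134600956-134601255, minus strand), *Naglu* (chr11:101069844-101070143, plus strand), *Abca1* (chr4:53159846-53160145, minus strand), *Serpinb8* (chr1:107589756-107590055, plus strand) and *F3* (chr3:121723287-121723586, plus strand). Distances are counted from 0 at the start site. *Gla* has the longer core at 2 places, starting 228 and 195 bases before the start site, *Naglu* an E-box 73 bases and an antioxidant response element 153 bases before it, and *Abca1* an E-box 147 bases before it. *Serpinb8* has AP-1 motifs starting 23 bases before the start site and 14 bases after it, and *F3* has AP-1 motifs 146 and 135 bases before it.
Gla: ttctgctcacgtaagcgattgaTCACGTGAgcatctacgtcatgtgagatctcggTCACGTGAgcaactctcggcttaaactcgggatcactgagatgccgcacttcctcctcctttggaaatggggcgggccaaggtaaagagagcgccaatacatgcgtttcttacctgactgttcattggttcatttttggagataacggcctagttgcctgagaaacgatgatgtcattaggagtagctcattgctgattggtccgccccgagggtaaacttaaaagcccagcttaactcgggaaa
Naglu: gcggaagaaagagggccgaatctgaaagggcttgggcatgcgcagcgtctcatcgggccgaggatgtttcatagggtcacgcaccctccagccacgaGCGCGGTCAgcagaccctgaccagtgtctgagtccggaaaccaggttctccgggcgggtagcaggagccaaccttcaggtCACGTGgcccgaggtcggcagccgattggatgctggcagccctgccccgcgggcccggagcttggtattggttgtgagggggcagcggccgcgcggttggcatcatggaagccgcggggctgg
Abca1: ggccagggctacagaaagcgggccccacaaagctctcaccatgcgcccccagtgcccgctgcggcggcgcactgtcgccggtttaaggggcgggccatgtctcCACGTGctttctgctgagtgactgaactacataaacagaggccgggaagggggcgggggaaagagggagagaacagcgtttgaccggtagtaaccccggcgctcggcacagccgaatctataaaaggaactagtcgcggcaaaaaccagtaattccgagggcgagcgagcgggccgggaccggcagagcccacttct
Serpinb8: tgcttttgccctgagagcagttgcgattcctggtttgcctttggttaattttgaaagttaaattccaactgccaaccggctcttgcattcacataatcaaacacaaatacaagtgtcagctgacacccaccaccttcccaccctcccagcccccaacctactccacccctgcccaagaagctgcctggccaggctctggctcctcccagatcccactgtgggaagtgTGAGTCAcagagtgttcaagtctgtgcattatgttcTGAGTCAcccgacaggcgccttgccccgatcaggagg
F3: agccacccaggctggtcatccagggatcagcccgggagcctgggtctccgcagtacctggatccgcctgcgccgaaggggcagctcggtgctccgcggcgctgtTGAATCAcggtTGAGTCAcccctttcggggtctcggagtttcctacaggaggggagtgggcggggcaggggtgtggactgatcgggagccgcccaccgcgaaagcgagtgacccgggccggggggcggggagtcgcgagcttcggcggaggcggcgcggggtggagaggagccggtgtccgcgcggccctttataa

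Of the 228 genes, 26 had an E-box in a promoter, and only some of these are shown. *Gla*, *Naglu* and *Abca1* had a smaller rise in DKO with both drugs, *Abca1* by little with torin1. The rise was smaller in DKO in 153 of the 228 genes with torin1 and in 148 with MK-8722. Whether the E-box bears on the rise was not tested. *Abca1* had rises of 1.69 in WT and 1.65 in DKO with torin1 and of 0.80 and 0.54 with MK-8722.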

How the data were processed

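RNA of 24 MEF cultures was sequenced. Per the study's methods and the labels, the authors processed reads with nf-core/rnaseq (STAR and salmon, GRCm38) and deposited estimated counts per gene and, per transcript, estimated counts and TPM values that salmon scaled by effective length. The study's methods name a removal of batch effects with limma, whose batches and place in the analysis are not given in the sources used here, and the labels name a single batch. The 228 genes and the gene lists were chosen with earlier results of these data known.

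CPM was computed from the counts over column sums. Estimated counts were rounded to whole numbers and fitted with edgeR (4.0.16, R 4.3.3) by quasi-likelihood with trended dispersion, TMM factors, means of the 6 groups and filterByExpr (minimum count 10), which left 15401 genes and 18 residual degrees of freedom. A gene was called where its p, adjusted by Benjamini-Hochberg over all genes, was under 0.05 with at least a 1.2-fold difference. Main transcript shares were tested with limma (3.58.1) on log2((main + 0.5)/(other + 0.5)). No library repeated another (chi-square per degree of freedom 3.97 to 40.5 within groups). Total counts were 24668921 to 33332562, and the biological coefficient of variation was 10.7%. On simulated counts for DKO against WT under DMSO on 15401 genes, 65 of 100 changes of 0.5 and 75 of 100 of 1 (log2) were recovered with 5 false calls.

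Genes were named by a rule: the 12 with the largest smallest rise, the 3 largest calls each way per test without overlap between groups, members on the lists, the 3 genes nearest the limit on either side, the MiT/TFE genes, the 3 largest and smallest differences of drug effect between genotypes per drug and the 3 largest share changes per drug comparison. Alternatives tried were DESeq2 (1.42.0), its size factors, library size alone, the quasi-likelihood form of edgeR 4, filters, thresholds, added constants, replicate and passage blocks and each library left out.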

Additional observations from a re-analysis of the deposited data

Results flagged for a closer look

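In the 67 genes named by rule, the 402 groups of 4 libraries were examined for a library whose gap to the nearest other exceeded Dixon's 95% critical value for its share of the group's range, and 49 such libraries were found. Chance alone gives about 1 in 20 groups. Of the 49, 30 were WT libraries of passage 11, and their cause was not tested.

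At passage 11 of WT, interferon-induced genes stood above the other 3 passages. *Ifit3* was at 44.9 CPM with DMSO against 1.02 to 2.91 in the others, 117 CPM with torin1 against 3.57 to 10.5 in the others and 96.98 CPM with MK-8722 against 2.802 to 5.04 in the others. *Ifit3b* was at 18.004 CPM with DMSO against 0.542 to 1.31 in the others, 50.97 CPM with torin1 against 1.15 to 4.81 in the others and 33.4 CPM with MK-8722 against 0.613 to 1.61 in the others. *Ifit2* was at 39.6 CPM with DMSO against 27.6 to 28.8 in the others and 71.5 CPM with torin1 against 44.5 to 45.9 in the others. *Rsad2* was at 12.3 CPM with DMSO against 0.564 to 1.34 in the others, 21.1 CPM with torin1 against 1.79 to 2.41 in the others and 29.3 CPM with MK-8722 against 1.14 to 1.74 in the others. *Oas3* was at 120.2 CPM with DMSO against 3.69 to 11.2 in the others, 218 CPM with torin1 against 7.47 to 26.4 in the others and 165 CPM with MK-8722 against 6.27 to 15.5 in the others. *Ifi207* was at 3.07 CPM with torin1 against 0.345 to 0.6897 in the others and 2.64 CPM with MK-8722 against 0.236 to 0.389 in the others. *Nlrc5* was at 37.3 CPM with DMSO against 12.5 to 14.9 in the others, 72.03 CPM with torin1 against 27.4 to 32.1 in the others and 62.9 CPM with MK-8722 against 21.2 to 23.3 in the others.

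The other genes whose WT library of passage 11 stood apart did so under 1 treatment each. *Lrrc32* was at 11.9 CPM with DMSO against 7.89 to 8.31 in the others. *Has2* was at 16.9 CPM with MK-8722 against 5.64 to 6.59 in the others. *Gm8995* was at 3.62 CPM with DMSO against 1.03 to 1.34 in the others. *Tnfrsf11b* was at 3.75 CPM with torin1 against 1.57 to 1.91 in the others. *Gla* was at 14.3 CPM with DMSO against 11.4 to 11.8 in the others. *Abca1* was at 19.7 CPM with torin1 against 14.3 to 15.2 in the others. *Slc2a8* was at 7.5002 CPM with DMSO against 8.58 to 8.79 in the others. *Il1rn* was at 31.3 CPM with MK-8722 against 14.5 to 17.1 in the others. *Ccl2* was at 152 CPM with torin1 against 93.2 to 100.01 in the others. *Il1rap* was at 30.7 CPM with torin1 against 25.05 to 25.4 in the others. *Itgb3* was at 9.9002 CPM with DMSO against 6.38 to 6.85 in the others.

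The remaining 19 were spread over groups and passages, each given with the range of the other 3 libraries. *Rgs16* had 4.59 CPM at passage 7 of WT torin1 against 2.37 to 2.66. *Serpinb8* had 1.84 CPM at passage 7 of WT torin1 against 2.82 to 3.01. *Plin4* had 1.18 CPM at passage 8 of DKO DMSO against 1.62 to 1.69. *Wnt7a* had 11.4 CPM at passage 11 of DKO MK-8722 against 16.1 to 16.6. *Slc35d2* had 10.04 CPM at passage 8 of WT torin1 against 8.601 to 8.76. *Boc* had 1.08 CPM at passage 9 of DKO DMSO against 1.76 to 1.78 and 1.56 CPM at passage 9 of DKO MK-8722 against 2.41 to 2.55. *Calcoco1* had 199.9 CPM at passage 9 of DKO torin1 against 209 to 211. *Gla* had 33.3 CPM at passage 8 of DKO MK-8722 against 30.03 to 30.5. *Tmem175* had 11.97 CPM at passage 9 of DKO MK-8722 against 10.2 to 10.5. *Rora* had 5.49 CPM at passage 11 of DKO torin1 against 6.802 to 7.03. *Pparg* had 1.02 CPM at passage 11 of DKO torin1 against 1.56 to 1.66. *Mybl1* had 12.1 CPM at passage 8 of DKO MK-8722 against 15.4 to 15.7. *Tfeb* had 14.97 CPM at passage 7 of WT torin1 against 16.96 to 17.4. *Tfe3* had 120.4 CPM at passage 8 of WT DMSO against 121.28 to 121.32. *Vamp1* had 14.03 CPM at passage 8 of WT MK-8722 against 12.2 to 12.5, 7.13 CPM at passage 9 of DKO DMSO against 7.702 to 7.74 and 9.1002 CPM at passage 10 of DKO MK-8722 against 10.7 to 10.9. *Celsr1* had 15.7 CPM at passage 8 of DKO MK-8722 against 13.2 to 13.5.

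The log2 difference of torin1 from MK-8722 differed between genotypes in 13 of the named genes, by edgeR's quasi-likelihood test of DKO minus WT adjusted over all genes, a test without DMSO libraries that was added after the data were seen. The difference was 1.54 ± 0.27 in *Tcim* (adjusted p = 6.8e-04), 0.50 ± 0.16 in *Ndrg1* (adjusted p = 0.034), 0.85 ± 0.21 in *Pik3r5* (adjusted p = 0.0071), -0.93 ± 0.28 in *Plin4* (adjusted p = 0.026), 0.37 ± 0.13 in *Klhl24* (adjusted p = 0.049). It was 1.46 ± 0.31 in *Dynap* (adjusted p = 0.0026), 0.58 ± 0.16 in *Pmaip1* (adjusted p = 0.017), 0.31 ± 0.07 in *Calcoco1* (adjusted p = 0.0033), 1.56 ± 0.30 in *Itgb3* (adjusted p = 0.0014). It was 0.70 ± 0.12 in *Hsd3b7* (adjusted p = 3.9e-04), -0.62 ± 0.19 in *Slc2a8* (adjusted p = 0.029), 0.27 ± 0.05 in *Pnpla2* (adjusted p = 0.0013) and -0.55 ± 0.12 in *Kansl1l* (adjusted p = 0.0025). A positive value means that torin1 stood higher against MK-8722 in DKO than in WT. The difference is made of rises that the rule used, and some of these genes were named for large differences between drugs or genotypes. The p-values and the count of 13 are therefore description, with no share over all genes beside them, and nothing is read from them.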

How the results depend on the processing

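Of the values that answer a comparison, recomputed under an alternative, 492 kept their direction and stayed within 1.5 times the main count and 9 moved further, and of those of single named genes 1370 kept their call and 43 lost it with the same direction. None turned its direction. With a minimum rise of 0.5 in place of 0.3, 55 of the 228 genes met the rule, and with TMM library sizes 210, with 1 in place of 0.5 as the added constant 204, with a mean of at least 5 CPM 187 and with no minimum 253. Leaving out 1 library at a time, between 216 and 283 genes met it, the latter without WT DMSO replicate 2 (passage 11), and 204 to 226 of the 228 genes were kept. Without all WT libraries of passage 11 it was 215, of which 203 were among the 228, and without the DKO libraries of passage 8 246, of which 217 were. These last 2 alternatives were chosen after seeing the data.

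For the calls between groups, leaving out a library gave 81 to 92 higher and 62 to 72 lower in DKO under DMSO, 75 to 82 and 74 to 82 under torin1, and 67 to 75 and 76 to 89 under MK-8722. It gave 96 to 106 higher and 14 to 18 lower for torin1 against MK-8722 in WT and 99 to 108 and 5 to 9 in DKO. For transcript shares it gave 5 to 9 calls with torin1 in WT, 2 to 4 with MK-8722 in WT, 3 to 5 with torin1 in DKO and 1 to 2 with MK-8722 in DKO. The share calls with torin1 in WT fell to 5 with at least 50 mean counts and to 5 without the WT libraries of passage 11, and with MK-8722 in DKO to 0 without the DKO libraries of passage 8. The cause was not tested, other than that fewer genes or samples entered these fits.

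Scaling by library size alone moved the median of all genes by over 0.1 for torin1 against DMSO in WT (0.14 against 0.05 with TMM) and DKO against WT under torin1 (-0.16 against -0.03). Replicate numbers did not pair the samples: deviations of same-numbered samples correlated by -0.41 to 0.66 (median 0.04, over 0.1 in 13 of 60 pairs). With the replicate block, 92 genes were called higher and 66 lower in DKO under DMSO, 79 and 77 under torin1, 77 and 83 under MK-8722, 101 and 16 for torin1 against MK-8722 in WT and 106 and 9 in DKO, and the share calls were 9, 3, 5 and 1. Passage did pair libraries of a genotype to some degree, with correlations of 0.02 to 0.66 (median 0.16, over 0.1 in 17 of 24 pairs) against a median of -0.04 between other passages (7 of 72). With passage as a block, 94 genes were called higher and 69 lower in DKO under DMSO, 84 and 77 under torin1 and 79 and 85 under MK-8722, 19 were lower for torin1 against MK-8722 in WT and 109 higher and 9 lower in DKO, and the share calls were 6, 2, 3 and 1, all within 1.5 times the main counts. Depth limited genes under about 1 CPM, such as *Wnt7a* and *Dynap* in WT.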
